A study of Mus musculus with 4 samples.

Results

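The genes described here are the metalloproteinases and their tissue inhibitors in chemically induced colon tumours of the mouse. They were chosen by symbol, by names that begin with Mmp, Timp, Adam or Adamts followed by a digit, without pseudogenes. This gave 77 of the 31053 genes in the count matrix: 22 Mmp, 4 Timp, 32 Adam and 19 Adamts genes.

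Matrix metalloproteinases (Mmp) are zinc enzymes that cut collagens, elastin, laminins and many soluble proteins. Most are secreted as inactive precursors, and a few, such as Mmp14, Mmp15 and Mmp25, are held at the cell surface. Adam proteins are membrane-bound, and their active members release growth factors, cytokines and receptors from the cell surface, whereas others lack enzyme activity or serve in sperm. Adamts proteins are secreted and act on proteoglycans and procollagens. The Timp proteins block these enzymes by binding the catalytic site, and in the gut wall enzymes and inhibitors are made by different cells during inflammation, repair and tumour growth.

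Tumours had been raised in female C57BL/6 mice with azoxymethane, a carcinogen (12.5 mg/kg), and 3 cycles of dextran sulphate sodium, which injures the colon lining (2.5% in the first cycles and 2% in the last, 5 days each), and were collected 30 days after treatment ended. There were 4 samples, 1 per group: CD45+ (immune) and CD45- (non-immune) cells of Egfr fl/fl mice, and both fractions of EgfrΔMYL mice, in which the epidermal growth factor receptor is deleted in the myeloid lineage. The labels do not give the driver of that deletion or the number of animals behind a sample. The deposited counts are 1 matrix whose barcodes carry 4 suffixes, called libraries 1 to 4 below, and no source used here ties a suffix to a sample. Genotypes and sorted fractions were therefore not compared, libraries were never averaged, and no p-value is given because nothing is replicated. The Egfr level was not used to check a label, since no library carries one.

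The libraries held 9246770, 17158831, 37642375 and 65481274 UMIs (unique molecular identifiers, 1 for each captured transcript molecule). After filtering, 14198 of 18026 cells remained, and 14 barcodes among them occurred in a pair of libraries. Libraries 1 and 2 lost 59.0 and 56.3% of their barcodes to the filter, and libraries 3 and 4 lost 8.75 and 4.45%. Marker genes that include no metalloproteinase or inhibitor placed 12584 cells in 16 classes, and 1614 cells stayed outside every gate. Epithelial cells (1469) came from libraries 1 and 2 for all but 59 cells, and the 71 stromal cells came from those libraries alone. C1q macrophages (1841), inflammatory monocytes (951) and dendritic cells came almost wholly from libraries 3 and 4, and neutrophils (2660) came from all 4. Every marker list was at least 2-fold higher in its own class. All markers were seen in 10% or more of the cells of their class, except 1 of 8 fibroblast and 2 of 7 mural markers. The same markers had placed the cells, so these values are no independent check of the classes. The stromal class joins 23 fibroblasts, 41 endothelial cells and 7 mural cells, so its levels rest on few molecules.

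Of the 77 genes, 35 had at least 50 UMIs in gated cells, 13 had 10 to 49, 12 had 1 to 9 and 17 had 0. Of the 17 without a UMI, 13 were Adam genes. The main source of a gene is the class with its highest level, in UMIs per 1000000 UMIs of the class (CPM), given with an exact 95% Poisson interval that covers counting error only. Stromal cells were the main source of 14 of the 35 genes, C1q macrophages and epithelial cells of 4 each, neutrophils and inflammatory monocytes of 3 each, migratory dendritic cells and NK and innate lymphoid cells of 2 each, and plasmacytoid dendritic cells, mast cells and B cells of 1 each. The share of all genes with stromal cells highest was not computed, so the stromal count has no background. The intervals of the highest and the next class were separate for 21 genes and overlapped for 14. Among the stromal genes they overlapped for Adam10, Adam12, Adam19, Adamts6, Adamts15, Mmp11 and Mmp23. The ratio of highest to next was at least 2 for 19 genes and at least 5 for 9.

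**Figure D1:**
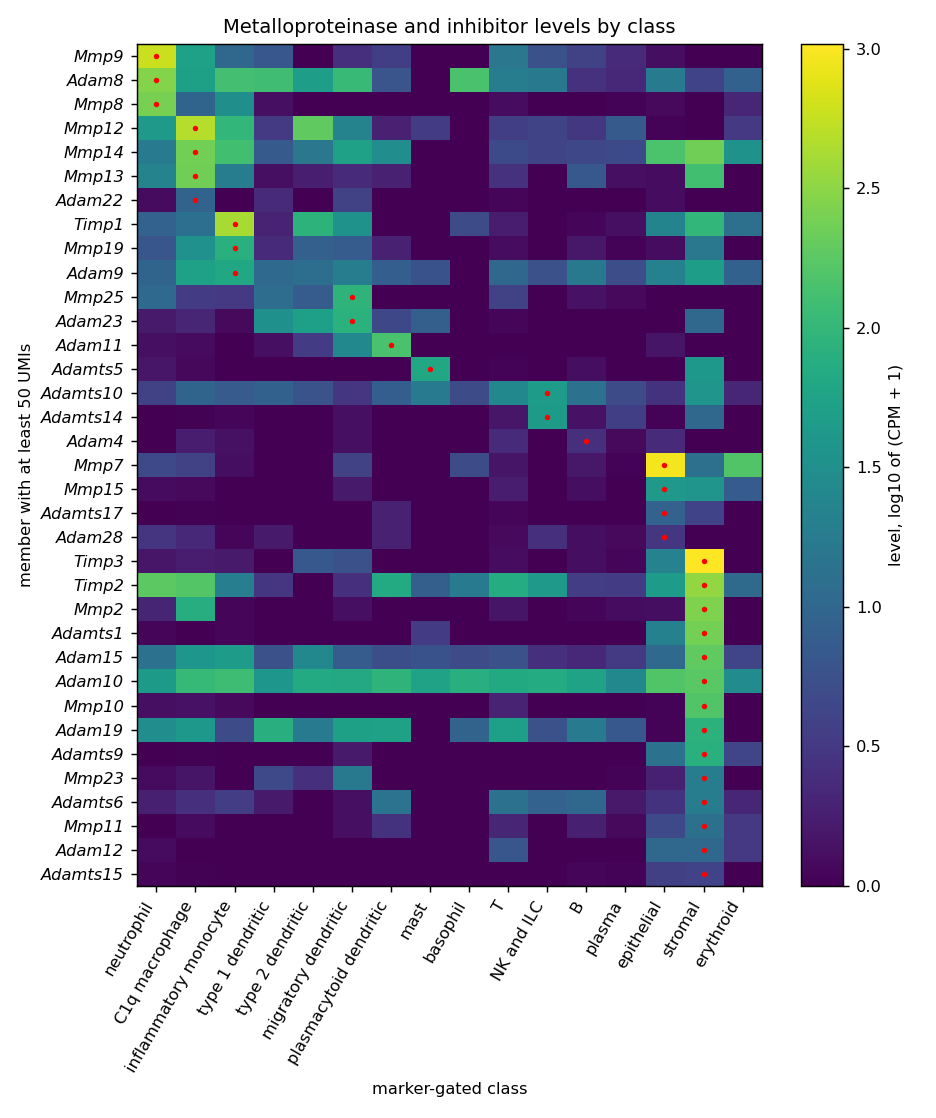
Level of the 35 genes with at least 50 UMIs (rows) in the 16 marker-gated classes (columns), as log10 of CPM + 1. A red point marks the main source, and Mmp9 and Mmp8 are brightest in neutrophils and Mmp7 in epithelial cells (910 CPM, with 155 CPM in erythroid cells), whereas Adam10 was present in every class.

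Neighbouring secreted enzymes of chromosome 9 had different main sources, though not all of these were firm. In mm10 (GRCm38), 9 Mmp genes lie within 427.1 kb, from position 7272514 to 7699585, in the order Mmp13, Mmp12, Mmp1b, Mmp3, Mmp10, Mmp8, Mmp27, Mmp20 and Mmp7. Mmp13 (collagenase 3) and Mmp12 (macrophage elastase) had C1q macrophages as main source, Mmp3 and Mmp10 (stromelysins) stromal cells, Mmp8 (neutrophil collagenase) neutrophils, and Mmp20 and Mmp7 (matrilysin) epithelial cells. Mmp1b had 0 UMIs and Mmp27 had 7. Mmp3 was placed by 6 of 20 gated UMIs, and barcodes removed by the filter held 122. Mmp10 had 84 gated UMIs and 71 in removed barcodes. Mmp20 was at 1.70 CPM and not separated from the next class, and with clusters in place of gates Mmp13 was highest in stromal cells. The 100 bases before the RefSeq start of the 5 genes with at least 50 UMIs are printed because these neighbours were read mainly in 4 different cell classes. All lie on the forward strand, 5′ to 3′, and capitals mark a pair of motifs. The first is TGANTCA, the core bound by AP-1 factors. The other is the TATA box, searched as TATAAA.
Mmp13 (chr9:7272414-7272513): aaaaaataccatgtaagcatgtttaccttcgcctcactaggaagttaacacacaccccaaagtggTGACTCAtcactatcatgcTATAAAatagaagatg
Mmp12 (chr9:7344297-7344396): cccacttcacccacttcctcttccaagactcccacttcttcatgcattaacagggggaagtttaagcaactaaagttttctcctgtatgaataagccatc
Mmp10 (chr9:7502242-7502341): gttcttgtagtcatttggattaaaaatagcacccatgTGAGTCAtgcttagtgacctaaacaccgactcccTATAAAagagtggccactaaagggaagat
Mmp8 (chr9:7558329-7558428): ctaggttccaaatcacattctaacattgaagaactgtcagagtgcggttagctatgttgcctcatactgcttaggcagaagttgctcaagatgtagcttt
Mmp7 (chr9:7691990-7692089): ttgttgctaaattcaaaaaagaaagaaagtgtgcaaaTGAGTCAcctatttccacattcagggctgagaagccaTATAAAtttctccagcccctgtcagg

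Mmp13, Mmp10 and Mmp7 each held both motifs in this window, and their main sources were 3 different classes. The AP-1 core began 35, 63 and 63 bases and the TATA box 16, 29 and 26 bases before the start of Mmp13, Mmp10 and Mmp7. Neither motif was found in the window of Mmp8 or Mmp12, although Mmp12 had an AP-1 core in the 250 bases before another RefSeq start. Over the 250 bases before each start, searched on both strands, TGANTCA was present in 7.82% of 27025 genes and in 11 of the 47 metalloproteinase and inhibitor genes with an entry. TATAAA was present in 14.3% of genes and in 11 of the 47. The motifs do not overlap each other, and these matches describe the sequence only.

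Neutrophils were the main source of Mmp9 (gelatinase B), Adam8 (a leukocyte surface protease) and Mmp8. They were at least 2-fold above the mean of the other classes for 5 of the 48 genes with at least 10 UMIs in gated cells, against 5.76% of all 17272 genes tested in this way, and the 5 were these 3 with Timp2 and Adam30. Levels 2-fold or more below were found for 23 of 48 (background 53.2%). Mmp9 was at 540 CPM in library 1, 573 in library 2, 657 in library 3 and 579 in library 4. These neutrophil levels lay within 1.5-fold of each other, and the pooled level was 597 CPM (581 to 613). The next class, C1q macrophages, had 51.6 CPM, so that the ratio of levels was 11.6 (10.9 to 12.3). A UMI of Mmp9 was seen in 65.7% of neutrophils (exact binomial interval 63.9 to 67.5), and in 39.4% (37.5 to 41.4) of the 2469 neutrophils that could be thinned to 1000 UMIs.

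Mmp8 varied far more between libraries than Mmp9 did. Its neutrophil level was 224 CPM in library 1 (174 to 283), 82.6 in library 2 (55.3 to 119), 437 in library 3 (411 to 465) and 187 in library 4 (177 to 198). Library 3 was high and library 2 low, and only the intervals of libraries 1 and 4 overlapped. The pooled level was 248 CPM (238 to 258), against 30.8 CPM in inflammatory monocytes, a ratio of 8.05 (7.16 to 9.08). Adam8 was more even, at 319, 282, 323 and 267 CPM in neutrophils of libraries 1 to 4, with a pooled level of 284 CPM (273 to 295). Basophils followed with 141 CPM from 35 UMIs, then inflammatory monocytes with 128, type 1 dendritic cells with 122 and migratory dendritic cells with 106 CPM. Adam8 was thus spread over several myeloid classes, whereas 80.6% of gated Mmp8 UMIs and 75.6% of gated Mmp9 UMIs were in neutrophils.

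The neutrophils differed among themselves along markers of granule content. A granule-rich subset, gated on secondary granule genes such as Ltf, Camp and Ngp, held 90 cells, an activated subset (Ccl3, Ccl4, Il1a and others) held 1927, and 643 lay between. Mmp8, itself a protein of these granules, was at 1408 CPM (1321 to 1500) in granule-rich and 116 CPM (108 to 124) in activated neutrophils, a ratio of 12.2. Mmp9, stored in granules made later, was at 987 CPM (915 to 1065) against 526 CPM (508 to 544), a ratio of 1.88. Adam8 was at 428 CPM (381 to 480) against 255 CPM (243 to 268). The inhibitor Timp2 was at 201 CPM (169 to 237) against 166 CPM (156 to 176), with overlapping intervals. Granule-rich cells numbered 2, 2, 48 and 38 in libraries 1 to 4, and library 3, where they were the larger share of neutrophils, also had the highest Mmp8. Within activated neutrophils alone, Mmp8 was at 108, 79.1, 128 and 115 CPM in libraries 1 to 4, and all 4 intervals overlapped. Granule-rich cells were also deeper, with a median of 6734.5 UMIs against 2997.

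**Figure D2:**
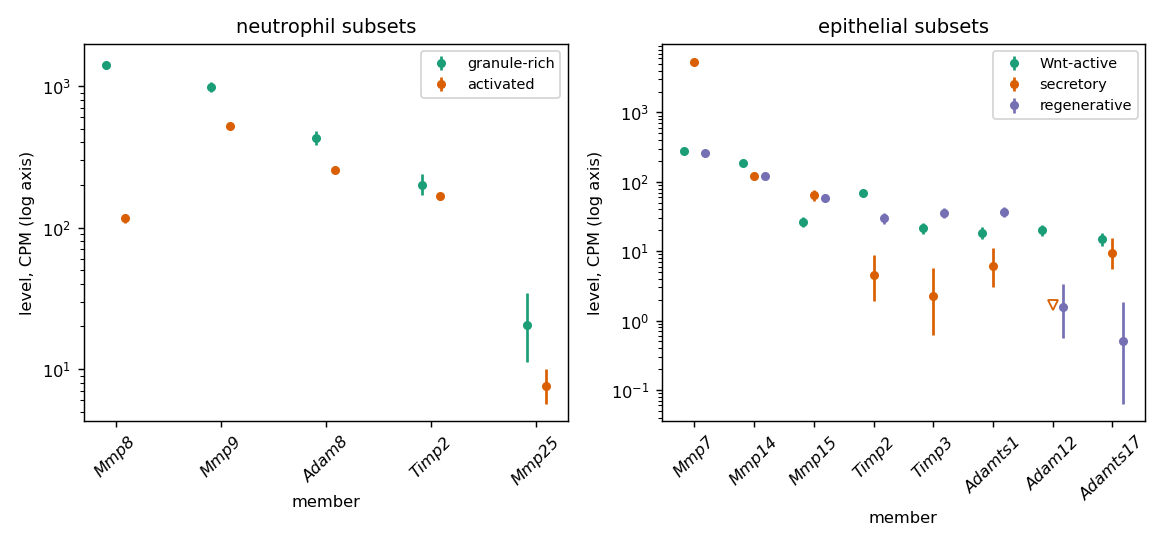
Level in CPM (log axis, bars are exact 95% Poisson intervals) of selected genes in 2 neutrophil subsets (left) and 3 epithelial subsets (right); an open triangle marks the level that 3 counts allow where none was seen. Mmp8 (1408 against 116 CPM) and Mmp7 (5370 CPM in secretory cells) stand farthest from the other subsets.

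C1q macrophages, gated on complement C1q genes, Csf1r and others, were the main source of Mmp12, Mmp14, Mmp13 and Adam22. They were at least 2-fold above the other classes for 8 of 48 genes (background 5.85%), which adds Mmp2, Mmp19, Adam9 and Timp2. A further 22 were at least 2-fold below (background 16.7%). Mmp12 was at 361 CPM in library 1, 860 in library 2, 443 in library 3 and 503 in library 4, but libraries 1 and 2 held only 5 and 14 of these cells. The pooled level was 486 CPM (478 to 494), against 192 CPM (169 to 219) in type 2 dendritic cells, a ratio of 2.52 (2.22 to 2.88), and 99.7 CPM in inflammatory monocytes. Of the 87 type 2 dendritic cells, 37 lay near the gate's limit. Epithelial cells held 1 Mmp12 UMI and stromal cells 0, and cells outside every gate had 320.5 CPM.

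Mmp13 was at 21.2, 240, 230 and 229 CPM in C1q macrophages of libraries 1 to 4, the first from a single UMI, and at 229 CPM (223 to 235) pooled. Stromal cells had 128 CPM (92.1 to 173) from 42 UMIs, 31 of them in fibroblasts. With clusters in place of gates the order turned, at 206.5 CPM in macrophages and 207.5 CPM in stromal cells. Mmp14, the membrane protease that activates pro-Mmp2, was at 127, 320, 246 and 233 CPM in libraries 1 to 4 and at 237 CPM (231 to 243) pooled. Stromal cells had 231 CPM (182 to 289), which was not separated from the macrophage level and came first without library 1 (239 against 237 CPM) or after thinning (311.5 against 241 CPM), and epithelial cells 146 CPM. Mmp14 was therefore shared by 3 compartments, unlike Mmp12. Adam22, a catalytically inactive member of its family, was low, at 8.15 CPM (7.12 to 9.29), and 91.4% of its gated UMIs were in C1q macrophages. After thinning, migratory dendritic cells came first for Adam22 by a small margin, at 9.84 against 9.54 CPM.

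Macrophage Mmp12 came from a minority of cells. A UMI of Mmp12 was seen in 31.8% of C1q macrophages, 14.5% after thinning, and the highest 10% of cells held 86.7% of the UMIs, with up to 602 in 1 cell. The same share was 72.8% for Mmp13 and 35.8% for Mmp14. The 586 cells with an Mmp12 UMI had more Mmp13 than the 1255 without, at 375 against 116 CPM, a ratio of 3.24 (3.07 to 3.42). The ratio was 3.0 (2.71 to 3.33) in library 3 and 3.33 (3.12 to 3.55) in library 4. Arg1 and Spp1 were also higher in cells with Mmp12, at 242 against 110.5 CPM and 566 against 271 CPM, and Mrc1, the mannose receptor, was lower, at 260 against 524 CPM. C1qa, a marker of the gate itself, differed little, at 5312 against 5594 CPM. Mmp2 was at 73.8 and 76.5 CPM, with an interval of the ratio from 0.882 to 1.05. Cells with an Mmp12 UMI were deeper, with a median of 18535 against 11992 UMIs, and the part of depth in these differences was not tested.

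Inflammatory monocytes, gated on Ly6c2, Ccr2 and Chil3, were the main source of Timp1, Mmp19 and Adam9. They were at least 2-fold above the other classes for 6 of 48 genes (background 4.63%), which adds Adam8, Adam15 and Mmp14. Another 22 were at least 2-fold below (background 28.9%). Timp1, the secreted inhibitor induced in inflammation, was at 530 CPM in library 1, 787 in library 2, 200 in library 3 and 488 in library 4. Libraries 1 and 2 held 4 of these cells each, and the intervals of library 3 (183 to 218) and library 4 (472 to 504) were far apart. The pooled level was 417 CPM (405 to 430), and the next, in stromal cells, was 97.3 CPM (66.6 to 137), a ratio of 4.29 (3.03 to 6.28). Type 2 dendritic cells had 88.9 CPM and epithelial cells 22.0 CPM. Cells outside every gate, which are not ranked as a class, had 146.7 CPM of Timp1, above the stromal level.

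Timp1 was also uneven within the gate. A UMI was seen in 27.8% of the monocytes (24.9 to 30.7), and the highest 10% of them held 86.4% of the UMIs. Of the 951 cells, 763 and 148 lay in a pair of clusters found without metalloproteinase or inhibitor genes. These clusters held 1091 and 328 cells in all, and only their gated monocytes are read here. The smaller cluster had 1458 CPM of Timp1 (1402 to 1516), or 2523 of the 4365 UMIs in the gate. The larger cluster had 207 CPM (198 to 217). The smaller cluster also had more Mmp14 (312 against 92.5 CPM), seen in 85.1% and 36.4% of cells. It had more Mmp12 (335 against 54.2 CPM), which came from 23 cells and was at 198 CPM without the highest of them. Its Mmp13 was carried by 1 cell of library 4, with 163 of the cluster's 176 UMIs, and without that cell the level was 7.58 CPM. It had less Mmp8 (18.5 against 34.2 CPM) and Timp2 (6.36 against 21.6 CPM). Its Ly6c2, a marker of the gate, was lower (162 against 535 CPM) and near the mean of the other classes (160 CPM). Its Inhba (4581 against 567 CPM) and Arg1 (1296 against 306 CPM) were higher, and C1qa was low in both clusters (35.3 and 66.7 CPM). Timp1 and Mmp14 were therefore high together in a small set of gated monocytes, and Mmp12 and Mmp13 rested there on few cells. Cells that score highest for C1q genes go to the macrophage gate, so the low C1qa follows from the gating.

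Mmp19, a stromelysin-like enzyme, was at 15.1 CPM (1 UMI), 82.8 CPM (2 UMIs), 112.5 and 72.3 CPM in monocytes of libraries 1 to 4, and at 81.9 CPM (76.5 to 87.6) pooled against 32.4 CPM in C1q macrophages. Adam9 was at 45.4 and 124 CPM from 3 UMIs each in libraries 1 and 2, and at 53.6 and 65.6 CPM in libraries 3 and 4. Its pooled level of 62.6 CPM (57.9 to 67.6) was only 1.18 times (1.07 to 1.30) that of C1q macrophages, which came first in library 3. Adam9 was thus a gene of both classes, and Mmp19 leaned to the monocytes. Cells outside every gate had 46.1 CPM of Mmp19, above the C1q macrophage level.

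Set against each other, the 2 mononuclear phagocyte classes differed in the levels of part of these genes. Of 26 genes with at least 10 UMIs in either, 9 were at least 2-fold higher in C1q macrophages (background 19.6%) and 4 at least 2-fold higher in monocytes (background 4.84%). The other 13, Mmp14 among them, were called in neither direction. Timp1 was 35.7-fold (31.9 to 40.1) higher in monocytes, at 417 against 11.7 CPM, while Timp2 was 8.80-fold (7.62 to 10.2) higher in macrophages, at 163 against 18.6 CPM. Mmp2 (gelatinase A) had 2070 UMIs, or 75.3 CPM, in macrophages and 1 UMI in monocytes, a ratio of 788 (141 to 31135). Mmp13, Adam19, Mmp9 and Mmp12 were higher in macrophages in both libraries, but the size differed. Mmp13 was 12.6-fold higher pooled, 149-fold (58.3 to 549) in library 3, where monocytes held 4 UMIs, and 9.56-fold (8.25 to 11.1) in library 4, and without the 1 monocyte that held 163 of 190 UMIs it was 88.5-fold (60.8 to 134) higher. Adam19 was 10.2-fold higher pooled, 19.5-fold (8.88 to 53.5) in library 3 and 8.40-fold (5.98 to 12.2) in library 4. Both ratios were larger in library 3. Mmp9 was 5.51-fold higher pooled, 9.60-fold (6.01 to 16.3) in library 3 and 4.42-fold (3.52 to 5.63) in library 4, and 11.5-fold without 1 monocyte with 51 of 98 UMIs. Mmp12 was 4.87-fold higher pooled, 8.32-fold (7.02 to 9.94) in library 3 and 4.32-fold (4.04 to 4.63) in library 4. The direction of these 4 genes thus held in both libraries, and their pooled size lay nearer to that in library 4. Without library 4 the ratios of Mmp13, Adam19, Mmp9 and Mmp12 were 154, 20.1, 9.92 and 8.65. Mmp8 was 3.73-fold (3.13 to 4.44), Mmp19 2.53-fold (2.30 to 2.78) and Adam8 2.51-fold (2.33 to 2.71) higher in monocytes. Adam22 had 224 UMIs in macrophages and 0 in monocytes. The calls of Adam28 and Mmp7 rest on 34 and 79 macrophage UMIs. Mmp7 came to 185 UMIs per 1000 of Krt8 in macrophages, with 212 in library 3 and 143 in library 4. Epithelial cells had 367, but mainly from libraries 1 and 2, so the values are not from like libraries. The origin of macrophage Mmp7 was not tested, and no macrophage expression is read from it. Adam10, Adam15 and Adam9 differed by less than 1.2-fold.

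**Figure D3:**
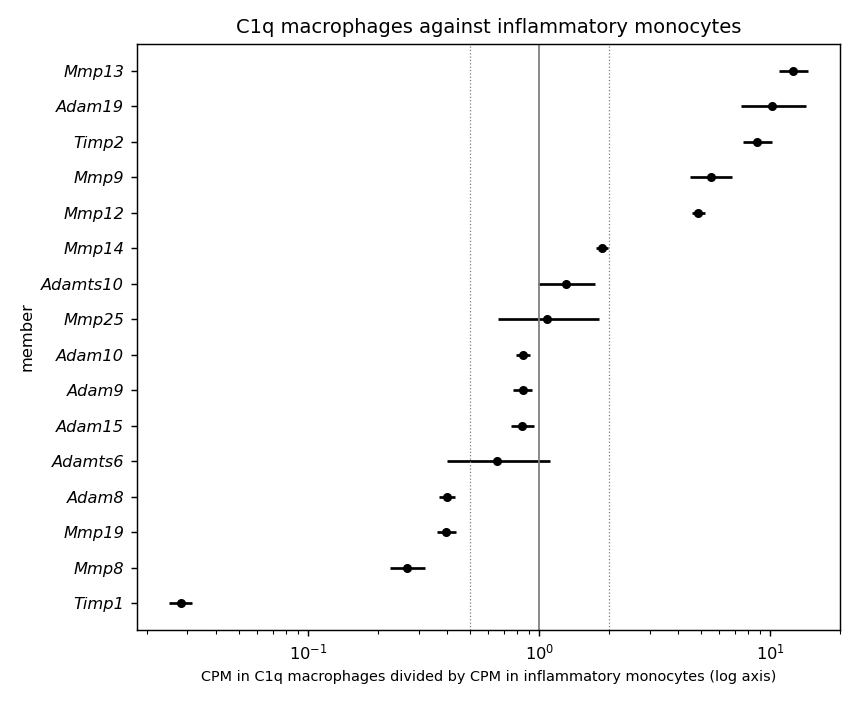
Ratio of CPM in C1q macrophages to CPM in inflammatory monocytes (log axis) with exact conditional 95% intervals, for the 16 genes with at least 10 UMIs in monocytes; dotted lines mark 2-fold. Timp1 lies far to the left (0.0280) and Timp2 to the right (8.80), so the 2 inhibitors run in opposite directions, and the Mmp13 point includes the monocyte with 163 UMIs.

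Mmp9 and Mmp8 were also read against a neutrophil marker in other classes. Free RNA from 1 source would carry its genes in the proportions of that source, so UMIs per 1000 UMIs of S100a8, an abundant neutrophil gene, are given. Both genes differed between the neutrophil subsets above, so a pooled neutrophil ratio is no fixed reference. For Mmp8 the values were 4.93 in neutrophils and 3.03 in C1q macrophages of library 3, and 3.39 and 3.14 in library 4. The low macrophage Mmp8 (8.26 CPM) thus did not exceed the neutrophil ratio in either library. S100a8 itself was uneven between classes, at 2250 and 2825.5 CPM in C1q macrophages of libraries 3 and 4. T cells of the same libraries had 42.6 and 315 CPM. The ratio cannot tell free RNA from neutrophil RNA carried by joined or engulfed cells, and the origin of macrophage Mmp8 was not tested. Monocytes had 94.2 Mmp8 UMIs per 1000 over all libraries, far above the neutrophil ratio. For Mmp9 the values were 7.41 in neutrophils, 29.6 in C1q macrophages and 338.5 in T cells of library 3, and 10.5, 16.1 and 48.4 in library 4. Macrophage and T cell values of Mmp9 were above the pooled neutrophil value in both libraries, and its T cell level was low, at 14.7 CPM. The highest 10% of C1q macrophages held 90.7% of their Mmp9 UMIs. The origin of Mmp9 outside neutrophils and of monocyte Mmp8 was not tested.

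Among dendritic cells, a few genes had their highest level in the migratory or the plasmacytoid class. Migratory dendritic cells, which express Ccr7, were the main source of Mmp25, a protease anchored in the outer membrane, and of Adam23, an inactive member that binds integrins. They were at least 2-fold higher for 4 of 48 genes (background 6.07%), adding Adam11 and Mmp23. Mmp25 was at 194.5 CPM (3 UMIs), 0, 104 and 83.4 CPM in libraries 1 to 4, with 4 of these cells in each of libraries 1 and 2. Pooled, it was at 91.2 CPM (80.8 to 103), 8.42 times (5.86 to 12.5) the level in type 1 dendritic cells, and neutrophils, a known source of this enzyme, had 9.61 CPM. Adam23 was at 130 and 214 CPM from 2 and 3 UMIs in libraries 1 and 2, and at 99.5 and 74.3 CPM in libraries 3 and 4. Its pooled level of 84.6 CPM (74.6 to 95.6) was followed by type 2 dendritic cells with 48.9 CPM (37.4 to 63.0) and type 1 dendritic cells with 31.8 CPM, so Adam23 was shared by the 3 classes and Mmp25 was not.

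Type 1 dendritic cells were at least 2-fold higher for 3 of 48 genes (background 4.09%), Adam23, Adam8 and Adam19, and type 2 dendritic cells for 3 (background 3.16%), Adam23, Timp1 and Mmp12. Neither was the main source of a gene with at least 50 UMIs. Plasmacytoid dendritic cells were the main source of Adam11, a catalytically inactive Adam, and called for 2 of 48 genes (background 8.33%) with Adamts6. Adam11 was at 87.0 and 82.1 CPM (1 UMI each), 182 and 127 CPM in libraries 1 to 4, and at 140 CPM (119 to 164) pooled against 24.4 CPM in migratory dendritic cells. An Adam11 UMI was seen in 72.1% of the 122 cells, and the highest 10% of cells held 30.6% of its UMIs. Adam11 was thus seen in most of these cells.

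**Figure D4:**
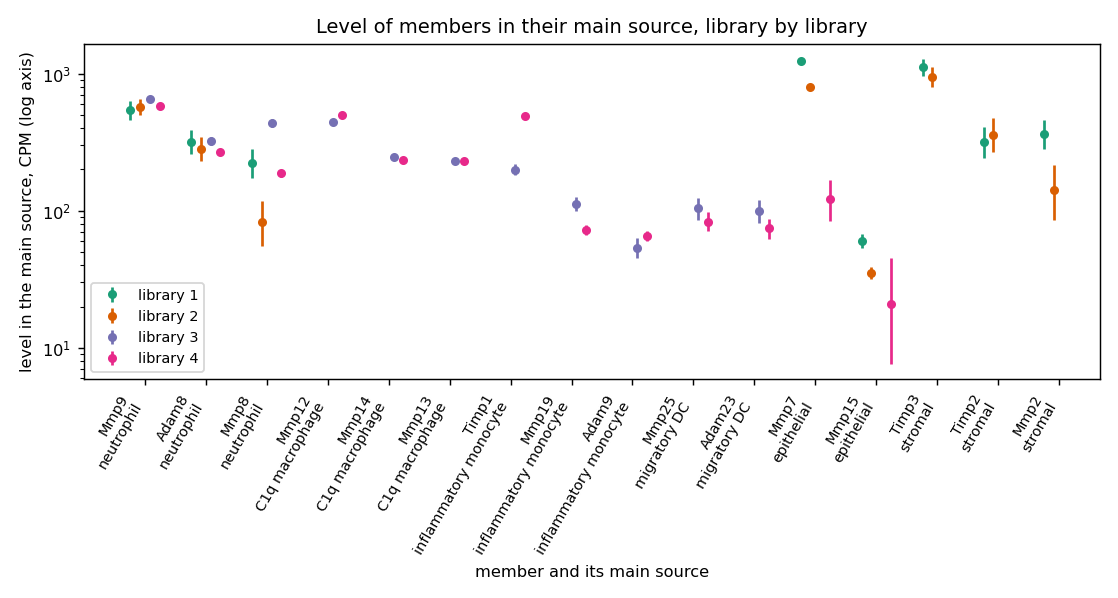
Level of 16 genes in their main source in each library with at least 20 cells of that class, in CPM (log axis) with exact 95% Poisson intervals. Mmp9 (540 to 657 CPM) and Adam8 (267 to 323 CPM) are close across libraries, whereas Mmp8, Timp1 and Mmp7 differ between libraries by more than their intervals.

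Epithelial cells were the main source of Mmp7, Mmp15, Adamts17 and Adam28. They were at least 2-fold above the other classes for 11 of 48 genes, a share below the background of 25.7%, and at least 2-fold below for 23 (background 15.8%). The count of 11 fell to 4 with 10 CPM added and to 5 after thinning, where the share over all genes was not computed. Mmp7 was at 1234 CPM (1202 to 1266) in library 1, 800 (784 to 817) in library 2, 20.3 from 1 UMI in library 3 and 121 (84.5 to 169) in library 4. The 2 libraries that held most epithelial cells were thus the high ones, and the pooled level was 910 CPM (896 to 925). Erythroid cells had 155 CPM from 141 UMIs, with 668 Mmp7 UMIs per 1000 of the keratin gene Krt8 against 367 in epithelial cells, and every other class had 12.2 CPM or less. The erythroid Mmp7 UMIs lay in 11 of 87 cells, and Krt8 itself was at 232 CPM in that class. Mmp15, a membrane-type Mmp, was at 59.9, 35.3, 20.3 and 20.8 CPM in libraries 1 to 4. Its pooled 42.0 CPM (38.9 to 45.3) was not separated from 36.5 CPM (18.9 to 63.8) in stromal cells, where all 12 UMIs were endothelial.

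Mmp7 was chiefly a gene of secretory epithelium. Cells gated on goblet-type secretory genes such as Muc2 and Spink4 (132 cells) had 5370 CPM (5263 to 5479), Wnt-active cells (412 cells; Lgr5, Axin2) 281 CPM (268 to 295) and regenerative cells (363 cells; Ly6a, Clu) 256 CPM (240 to 272). In library 2 the same levels were 5171, 300.3 and 398.5 CPM. Secretory cells came to 19.1 times the Wnt-active level pooled and 32.6 times without library 2, and the highest 10% of all epithelial cells held 86.4% of the Mmp7 UMIs. A single cell held 1623 of the 14971 epithelial UMIs. Only 16 cells met the absorptive gate, and 546 lay between subsets.

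The other epithelial genes fell elsewhere. Adam12, a protease of growing tissue, was at 19.9 CPM (16.5 to 23.9) in Wnt-active cells, 1.55 CPM in regenerative cells and 0 UMIs in secretory cells, which allows up to 1.68 CPM. Adamts17 was at 14.9 CPM (11.9 to 18.4) in Wnt-active, 9.53 in secretory and 0.515 in regenerative cells. Adamts1, an aggrecanase, was at 37.1 CPM (31.3 to 43.7) in regenerative, 18.2 in Wnt-active and 6.16 in secretory cells. Mmp7, Adam12 and Adamts1 thus each peaked in a different epithelial subset. Mmp14 was present in all 3, at 189, 121 and 122 CPM in Wnt-active, secretory and regenerative cells. Secretory cells were low in inhibitors, with Timp2 at 4.48 and Timp3 at 2.24 CPM, against 70.0 and 21.3 CPM in Wnt-active and 29.6 and 35.3 CPM in regenerative cells. Adamts17 was at 5.10 and 9.03 CPM in epithelial cells of libraries 1 and 2, with 0 and 1 UMIs in libraries 3 and 4. Adam28 was too low to place, at 2.01 CPM (1.38 to 2.82) in epithelial cells and 1.92 CPM in neutrophils.

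Stromal cells were at least 2-fold above the other classes for 20 of 48 genes, or 41.7%, against a background of 13.2%, and at least 2-fold below for 7 (background 18.1%). Their median log2 fold over the 48 genes was 1.76, with 0.05 over all genes tested. The 20 comprised 8 Adamts, 5 Mmp, 4 Adam and 3 Timp genes. All of this rests on 71 cells and 328726 UMIs. The count fell to 11 genes without library 1 and to 6 after thinning, where the share over all genes was not computed.

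The inhibitor Timp3, which binds to the matrix, was the clearest stromal gene. It was at 1111 CPM (965 to 1273) in library 1 and 948 CPM (795 to 1122) in library 2, which overlap, and at 1040 CPM (933 to 1157) pooled, 49.5 times (42.5 to 57.6) the 21.0 CPM of epithelial cells. Fibroblasts, endothelial and mural cells had 1331, 890 and 838 CPM, so all 3 cell types carried it. A Timp3 UMI was seen in 45 of the 71 stromal cells. A single cell held 83 of the 342 UMIs and the highest 7 cells held 57%, a spread that the Poisson interval does not cover. Timp2 was at 317 CPM in library 1 and 358 in library 2, and at 335 CPM (275 to 403) pooled, above 178 CPM in neutrophils and 163 in C1q macrophages. Its fibroblast level was 622 CPM and its endothelial level 179 CPM. Mmp2 was at 365 CPM (283 to 463) in library 1 and 140.5 CPM (85.8 to 217) in library 2, and at 268 CPM (215 to 330) pooled against 75.3 CPM in C1q macrophages. Of its 88 stromal UMIs, 74 were in fibroblasts. Because the stromal class is small, 94.7% of the gated Mmp2 UMIs were nonetheless in C1q macrophages.

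Fibroblasts and endothelial cells divided the rest. Mmp10 (stromelysin 2) had 52 UMIs, all in fibroblasts and in 6 cells, or 158 CPM (118 to 207) of the stromal class, 155 times (86.1 to 297) the 1.02 CPM of T cells. Adamts1 was at 358 CPM in endothelial cells and at 240 CPM (190 to 299.5) in the class, 11.9 times the epithelial level. Adam15 (metargidin) was at 281 CPM (212 to 366) in endothelial and 52.6 CPM (19.3 to 114) in fibroblast cells, and at 189 CPM (145 to 242) in the class against 44.5 CPM in monocytes. Adamts9 was at 128 CPM (82.8 to 189) in endothelial and 17.5 CPM in fibroblast cells, and at 82.1 CPM in the class, 6.69 times the epithelial level. Within the small stromal class, Mmp10 and Mmp2 were thus highest in fibroblasts, and Adamts1, Adam15 and Adamts9 in endothelial cells. A single cell held 33 of the 88 stromal Mmp2 UMIs. Over all gated cells, most UMIs of these endothelial genes lay elsewhere. C1q macrophages held 50.9% of those of Adam15, and epithelial cells 80.2% of Adamts1 and 86% of Adamts9.

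The remaining stromal assignments were not separated from the next class. Adam10, the main shedding protease of Notch, was at 176 CPM (134 to 228) in stromal and 158 CPM (152 to 164) in epithelial cells, and between 24.4 and 121 CPM in every other class. Adam19 was at 85.2 CPM (56.6 to 123) in stromal cells and 78.1 CPM (68.5 to 88.7) in type 1 dendritic cells, and 0.0608 CPM in epithelial cells. Mmp23, Adamts6, Mmp11, Adam12 and Adamts15 were placed in stromal cells by 6, 6, 4, 3 and 1 UMIs. The next classes were migratory dendritic cells for Mmp23 (15.8 CPM), plasmacytoid dendritic cells for Adamts6 (13.1 CPM), and epithelial cells for Mmp11 (3.59 CPM), Adam12 (9.06 CPM) and Adamts15 (2.73 CPM). For these 5 genes the interval of the ratio includes 1, and no stromal origin can be read from them.

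A few genes belonged to sparse classes. Adamts5 (aggrecanase 2) was at 61.6 CPM (40.3 to 90.3) in mast cells, with 0, 2, 8 and 16 UMIs in libraries 1 to 4, and at 39.6 CPM (21.1 to 67.6) in stromal cells, not separated. Mast cells were called for this gene alone (background 3.69%). Adamts14, a procollagen peptidase, was at 43.5 CPM (28.9 to 62.9) in NK and innate lymphoid cells, 47.0 CPM in library 3 and 40.7 CPM in library 4, against 9.13 CPM in stromal cells. Adamts10 was at 45.1 CPM (30.2 to 64.8) in the same class but at 20.1 CPM in library 3 and 66.9 CPM in library 4, and at 36.5 CPM in stromal and 24.9 CPM in T cells. These cells were called for both genes (background 7.12%). T cells were called for 3 genes, Adam12, Adamts6 and Adamts10 (background 6.81%), B cells for Adamts6 (background 6.76%), basophils for Adam8 (background 4.35%), erythroid cells for Mmp7 (background 0.984%) and plasma cells for 0 genes (background 2.47%). The origin of erythroid Mmp7 was not tested, and no erythroid expression is read from it. Adam4 was at 1.53 CPM in B cells and 1.36 CPM in T cells, too low to place.

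Of the 13 genes with 10 to 49 UMIs, stromal cells were the main source of Adamts2, Adamts4, Adamts7, Adamts12, Mmp3, Mmp17 and Timp4, the last pair from only 3 and 2 UMIs. The intervals of highest and next class overlapped for Timp4 and for all 6 others, which were Adam30 in neutrophils, Adam33 in C1q macrophages, Mmp28 in type 2 dendritic cells, Mmp20 in epithelial cells, Adam6b in B cells and Adam3 in plasma cells. Mmp28 was placed by 4 UMIs, and 72.1% of its gated UMIs were epithelial. Adam6b lies among the immunoglobulin heavy chain genes on chromosome 12.

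Summed over families, the excess of enzyme over inhibitor transcripts differed between classes. Mmp UMIs per Timp UMI came to 12.4 (11.8 to 13.1) in epithelial cells, 6.41 (6.22 to 6.61) in C1q macrophages and 5.06 (4.81 to 5.33) in neutrophils. The ratio was 0.848 (0.813 to 0.886) in inflammatory monocytes, 0.613 (0.529 to 0.710) in stromal cells and 0.413 (0.369 to 0.461) in T cells. The leading enzyme alone weighed heavily in some sums. Mmp7 made up 82.2% of Mmp UMIs in epithelial cells, Mmp9 63.2% in neutrophils and Mmp12 43.2% in C1q macrophages. The epithelial ratio thus rests mostly on Mmp7, of which the highest 10% of cells held 86.4%. The leading inhibitor differed: Timp2 made up 95.4% of Timp UMIs in neutrophils and 92.9% in C1q macrophages, Timp1 95.6% in monocytes, and Timp3 70.4% in stromal cells, while in epithelial cells the leading one, Timp2, came to 50.4%. The neutrophil ratio was 4.03, 4.16, 6.74 and 4.58 in libraries 1 to 4, and the C1q macrophage ratio 6.09 and 6.54 in libraries 3 and 4. The epithelial ratio was 18.8 in library 1 and 10.5 in library 2. The monocyte ratio lay on both sides of 1, at 1.45 (1.30 to 1.62) in library 3 and 0.771 (0.735 to 0.809) in library 4, 1.34 without library 4, and 2.27 with clusters in place of gates. No excess of inhibitor in monocytes can therefore be stated. Transcripts are not protein, and most Mmp proteins are released as inactive forms.

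**Figure D5:**
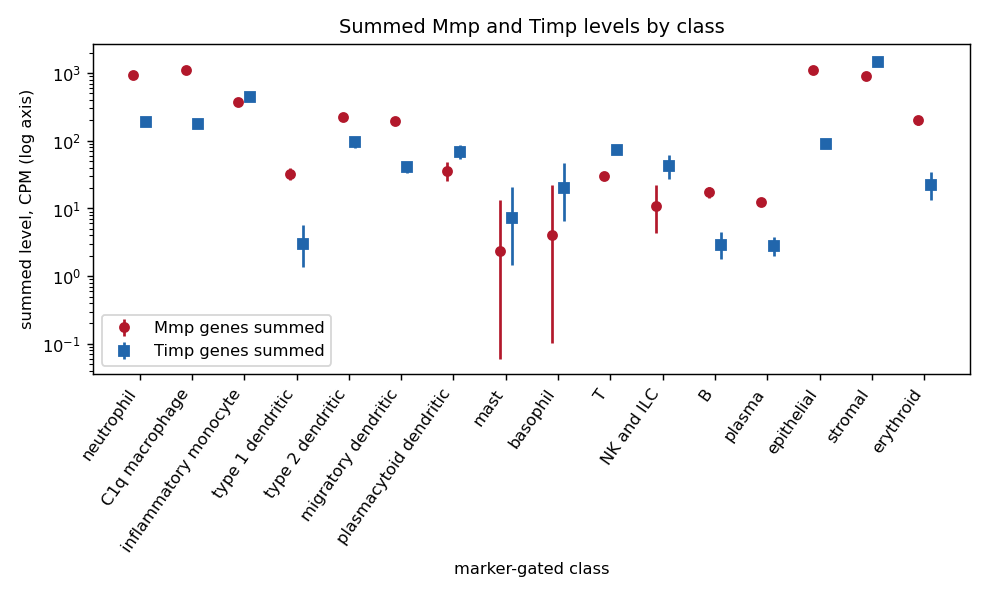
Summed level of the 22 Mmp genes (circles) and 4 Timp genes (squares) in each class, in CPM (log axis) with exact 95% Poisson intervals. Circles stand above squares in neutrophils (945 against 187 CPM), C1q macrophages (1126 against 176) and epithelial cells (1108 against 89.2), and below them in stromal cells (906.5 against 1478). Mmp7 alone makes up 82.2% of the epithelial Mmp sum.

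Other genes of the pathway came from 4 lists, read against the same backgrounds as above. The median log2 fold over all genes tested was -1.12 in neutrophils, -0.15 in C1q macrophages, -0.47 in inflammatory monocytes, 0.32 in epithelial cells and 0.05 in stromal cells. Of 17 activators and surface anchors, 4 were at least 2-fold higher and 8 lower in neutrophils (median -0.82), 2 higher and 5 lower in C1q macrophages (-0.43), and 3 higher and 7 lower in monocytes (0.14). In epithelial cells 7 were higher and 6 lower (0.16), and in stromal cells 8 higher and 4 lower (1.28). Plaur, the receptor that gathers urokinase at the cell surface, was at 2561 CPM in neutrophils, and Plau, urokinase itself, at 77.5 CPM in C1q macrophages against a mean of 7.75 CPM in the other classes. Plat, the tissue-type activator, was at 155 CPM in epithelial cells. Lcn2, whose protein binds Mmp9, was at 1852 CPM in neutrophils, where Cd44, a docking site for Mmp9, was at 1240 CPM. Lcn2 also marks the granule-rich subset.

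Of 9 other protease inhibitors, 4 were higher and 4 lower in monocytes (median -0.01), 4 higher and 3 lower in stromal cells (1.40), 2 higher and 5 lower in neutrophils (-1.30), 1 higher and 4 lower in C1q macrophages (-0.97), and 0 higher and 8 lower in epithelial cells (-2.06). Slpi, an inhibitor of neutrophil elastase, was at 3614 CPM in neutrophils, and Serpinb2, an inhibitor of urokinase, at 184 CPM in monocytes against a mean of 8.19 CPM. Of 8 other tissue proteases, 4 were higher and 2 lower in C1q macrophages (0.87), among them the cathepsins Ctss (4730 CPM) and Ctsb (2459 CPM). In monocytes 3 were higher and 2 lower (0.29), among the higher Prtn3 (22.9 CPM).

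Of 10 matrix substrates, 9 were higher and 0 lower in stromal cells (median 8.32), and 2 were higher and 7 lower in monocytes (-4.82), Fn1 (910 CPM) and Vcan (125 CPM) being the 2. Col1a1, Col1a2 and Col3a1 also served to gate fibroblasts and Vcan to gate monocytes, so these counts are not independent of the gates. Col4a1, of the basement membrane, was at 1868 CPM in stromal cells against a mean of 2.57 CPM elsewhere.

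Within single libraries the main sources mostly held. Where the pooled main source had at least 50 cells in a library, it was again the highest class there for 7 of 7 genes in library 1, 20 of 21 in library 2, 13 of 15 in library 3 and 17 of 17 in library 4. The exceptions were Adam28 in library 2, and Adam9 and Adamts10 in library 3. A library that lacks a class cannot show it as a source, so these counts compare few classes in libraries 1 and 2.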

How the data were processed

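Cells were sorted from collagenase-digested tumours and captured with a droplet 3′ kit, per the labels' protocols. The deposited matrix holds raw UMI counts, for which the submitters' processing notes name Cell Ranger 3.0.2 and mm10. Which annotation release was counted is not given in these sources. Gene positions are from GENCODE vM21 and start sites and sequences from RefSeq (GRCm38.p6). A catalytic-motif count in the proteins was planned and is not analysed here.

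Cells with at least 200 genes, 500 UMIs and at most 20% mitochondrial UMIs were kept. For each marker, log2 of 1 plus the count per 10000 was divided by the mean of its 50 highest cells and capped at 1. The score of a list was the mean over its markers. A cell joined its best class at a score of at least 0.25 and a lead of at least 0.1 over unrelated lists. These 2 limits were chosen among 5 pairs after levels had been seen, and fibroblast, endothelial and mural gates were joined because each held under 50 cells. UMIs were summed per class. Folds set a class, plus 1 CPM, against the mean over the other 15 classes, each weighted equally, plus 1 CPM, and a gene is called at 2-fold with at least 10 UMIs in the class, over the 17272 genes with at least 10 UMIs. Intervals are exact (Poisson, binomial, or conditional for a ratio), at 95%, and cover counting error only, so spread between animals is unknown. A count of 0 allows 3 counts of the total.

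Genes with at least 50 UMIs are named with values, those with 10 to 49 by main source, and the 3 highest of a source by library. Other list genes are named when at least 4-fold higher, at most 4 a class. The metalloproteinase genes, lists and markers were chosen with earlier results of these data known, and 1 further Adam gene is not reported here. The split of macrophages by Mmp12, the monocyte clusters, the cell-to-cell concentration, the chromosome 9 cluster and the motifs were chosen after values were seen. Python 3.11.15, numpy 2.4.6, scipy 1.17.1 and scanpy 1.11.5 were used, and the folds and intervals were tested on simulated data.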

Additional observations from a re-analysis of the deposited data

How the results depend on the processing

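Alternatives were 10 or 0.1 CPM added, all other cells summed as reference, a mitochondrial limit of 10%, a stricter gate, clusters in place of gates, removal of 625 cells by a doublet score (simulated doublets among neighbours, not Scrublet itself), no minimum count, thinning to 1000 UMIs and each library left out. Added after seeing the data were the 4 other pairs of gate limits, leaving out stromal and erythroid cells, the ungated cells as a class, and the macrophage to monocyte ratios by library and without the highest monocyte. No paired analysis was possible because no suffix is tied to a sample and each group has 1 sample.

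Genes called in any class numbered 41, and 27 after thinning. Epithelial calls fell from 11 to 4 with 10 CPM added and to 5 after thinning, and stromal calls from 20 to 6 after thinning. Mmp per Timp UMI in monocytes was 0.806 with the stricter gate, 2.27 with clusters, 0.980 and 0.953 with the looser limits. In C1q macrophages it was 5.90 with clusters and 6.79 without doublets, in stromal cells 0.526 at the 10% limit, and after thinning 4.53 in neutrophils and 8.58 in epithelial cells. After thinning the ratios were 2.15 for Mmp9 between neutrophil subsets and 15.3 for Mmp7, secretory over Wnt-active. Thinning left 0 stromal UMIs of Adam12 and Mmp11, with log2 folds of -0.93 and -0.43. After thinning, 27 of 35 main sources held, and Adam4, Adam9, Adam12, Adam19, Adam22, Mmp11, Mmp14 and Mmp23 changed. Without stromal and erythroid cells 21 genes remained to compare, and their main source could not change, so their count says nothing on stability.

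With each library left out in turn, calls in any class ranged from 34 to 42, in neutrophils from 4 to 6, in C1q macrophages from 8 to 9, in monocytes from 5 to 8, in epithelial cells from 9 to 12 and in stromal cells from 11 to 20. Main sources held for 20 to 34 genes, 20 being of the 21 that could be evaluated without library 2. Mmp per Timp ranged from 4.54 to 6.15 in neutrophils, 6.13 to 6.55 in C1q macrophages, 0.762 to 1.34 in monocytes, 10.36 to 18.04 in epithelial cells and 0.503 to 0.613 in stromal cells, where the value without library 2 could not be given. Ratios between subsets ranged from 11.9 to 12.5 for Mmp8, 1.69 to 1.96 for Mmp9 and 17.1 to 32.6 for Mmp7. The causes were not tested.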
